A study of Rattus norvegicus with 18 samples.

Results

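The immediate early transcription factor genes were examined in bladders of rats with or without spinal cord injury (SCI). They are 6 genes chosen by their Ensembl rat identifiers: Fos (ENSRNOG00000008015), Jun (ENSRNOG00000026293), Junb (ENSRNOG00000042838), Egr1 (ENSRNOG00000019422), Atf3 (ENSRNOG00000003745) and Myc (ENSRNOG00000004500). These are 6 of the 32754 genes listed, and all 6 were among the 15740 genes tested, those with more than 1 CPM (counts scaled to a fixed library size) in at least 3 of 18 libraries. Total RNA was sequenced from detrusor, the smooth muscle layer, and from mucosa, the urothelium with its lamina propria. All animals were wild-type male Sprague Dawley rats. The injured rats were 6 to 7 weeks old when the cord was cut through completely at the eighth thoracic level, and they were then given the purine nucleoside inosine at 225 mg/kg/day (SCI-inosine) or the sodium bicarbonate buffer alone (SCI-vehicle) by daily intraperitoneal injection for 8 weeks. Control rats were uninjured, age-matched, and are labelled as having no treatment, so injury and vehicle injection cannot be told apart in SCI-vehicle against Control. There were 3 libraries for each tissue and treatment. The labels number them but do not say which detrusor and mucosa came from the same rat, so p-values measure the spread between these libraries.

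Immediate early genes are transcribed within minutes of a stimulus, without new protein synthesis, and their transcripts decay quickly. In the bladder they are known to respond to stretch, irritation and injury. Fos and Jun encode partners in the dimeric transcription factor AP-1, and Junb encodes another AP-1 subunit of the Jun family. Egr1 encodes a zinc finger factor induced by growth factors and mechanical strain. Atf3 encodes a basic leucine zipper factor of the stress response, and Myc encodes a basic helix-loop-helix factor of growth and proliferation.

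Libraries held 3255012 to 6810496 counts (median 5030414), 4101639 to 6810496 in detrusor and 3255012 to 5632324 in mucosa. Values below are CPM scaled by the trimmed mean of M values (TMM). They are not divided by transcript length, so levels of different genes were not compared. In these bulk samples fewer cells of a type and less RNA per cell cannot be told apart. The identifiers could be paired with symbols for the 6 genes alone, so the tissue labels were not checked against marker genes. Instead, each library was placed between the 2 control tissues by genes over 4-fold higher in one of them. Detrusor SCI-vehicle replicate 1 lay 25.8% of the way to mucosa, the other 8 detrusor libraries -1.37% to 10.4%, and the mucosa libraries -5.28% to 10.8% of the way to detrusor. Detrusor SCI-inosine replicate 2 had counts for 14126 genes, against 16475 to 17842 in the other detrusor libraries.

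Sequence upstream of the start site was read from RefSeq's rat assembly GRCr8 for the members that matched by symbol. Junb and Egr1 matched, and Fos, Jun, Atf3 and Myc did not. The 250 bases before the Junb start (chr19:40080876-40081125, plus strand) are shown because Junb had the smallest p of the 6 genes in detrusor. Capitals mark, in order, the core of the cAMP response element (TGACG, 155 to 151 bases before the start), a CCAAT box (CCAAT, 85 to 81 before) and a TATA box (TATAAA, 49 to 44 before).
Junb: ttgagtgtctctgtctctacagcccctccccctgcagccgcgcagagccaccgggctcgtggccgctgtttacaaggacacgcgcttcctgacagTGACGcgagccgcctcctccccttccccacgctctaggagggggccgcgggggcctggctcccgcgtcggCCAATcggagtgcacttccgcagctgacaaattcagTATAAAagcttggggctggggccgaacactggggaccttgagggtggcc
Of 33469 rat promoters, 18.2% held this core on either strand in a window of this length, 34% the CCAAT box and 12.9% the TATA box. In Egr1, the same window held 2 CArG boxes, the core element bound by serum response factor. They read CCATATTAGG (105 to 96 bases before the start) and CCATATATGG (83 to 74 before), and 1.5% of promoters held a CArG box. Egr1 also held the TGACG core on the reverse strand at 135 to 131 and at 66 to 62 bases before the start, and a CCAAT box at 228 to 224. These matches describe letters in the window and are no evidence of binding.

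In mucosa, Fos, Jun, Junb, Egr1 and Atf3 split the 9 libraries the same way. Control replicates 1 and 3 and SCI-vehicle replicates 1 and 2 were the 4 lowest for each of these 5 genes, and Control replicate 2, SCI-vehicle replicate 3 and all 3 SCI-inosine libraries lay above them. These 4 libraries were picked from the levels of the 5 genes themselves. The same 4 were the lowest for 209 of 15740 genes (1.33%), and no test was made of this share. Myc, the sixth gene, did not follow this order.

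For Fos, mucosa replicates 1, 2 and 3 read 139.7, 772 and 107 CPM in Control, 140.1, 127 and 503 in SCI-vehicle, and 577, 549.6 and 761 in SCI-inosine. The 3 SCI-inosine libraries stood above every SCI-vehicle library, but Control replicate 2 was the highest of all 9. For Jun, the AP-1 partner of Fos, the values were 277, 774 and 213 CPM in Control, 289, 210.2 and 672 in SCI-vehicle, and 812, 816 and 1032 in SCI-inosine. Here SCI-inosine stood above all 6 other mucosa libraries. For Junb the values were 229.9, 575 and 171.5 CPM in Control, 204, 190 and 550.4 in SCI-vehicle, and 573, 525 and 731 in SCI-inosine. SCI-inosine overlapped both other groups for Junb, through Control replicate 2 and SCI-vehicle replicate 3.

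For Egr1, mucosa values ran from 74.5 CPM in Control replicate 3 to 892 CPM in Control replicate 2, with 165 CPM in Control replicate 1. SCI-vehicle read 111, 126 and 433.5 CPM and SCI-inosine 569, 633.5 and 864 CPM, so these groups did not overlap. For Atf3, the values were 14.9, 33.2 and 4.95 CPM in Control, 1.80, 7.39 and 42.2 in SCI-vehicle, and 28.2, 91.3 and 151 in SCI-inosine. Its lowest value rested on 9 reads and its highest on 722. For Myc, the values were 38.2, 32.3 and 30.2 CPM in Control, 35.4, 30.9 and 40.4 in SCI-vehicle, and 28.4, 46.9 and 53.4 in SCI-inosine. The lowest and the highest Myc value of mucosa were both in SCI-inosine.

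**Figure D1:**
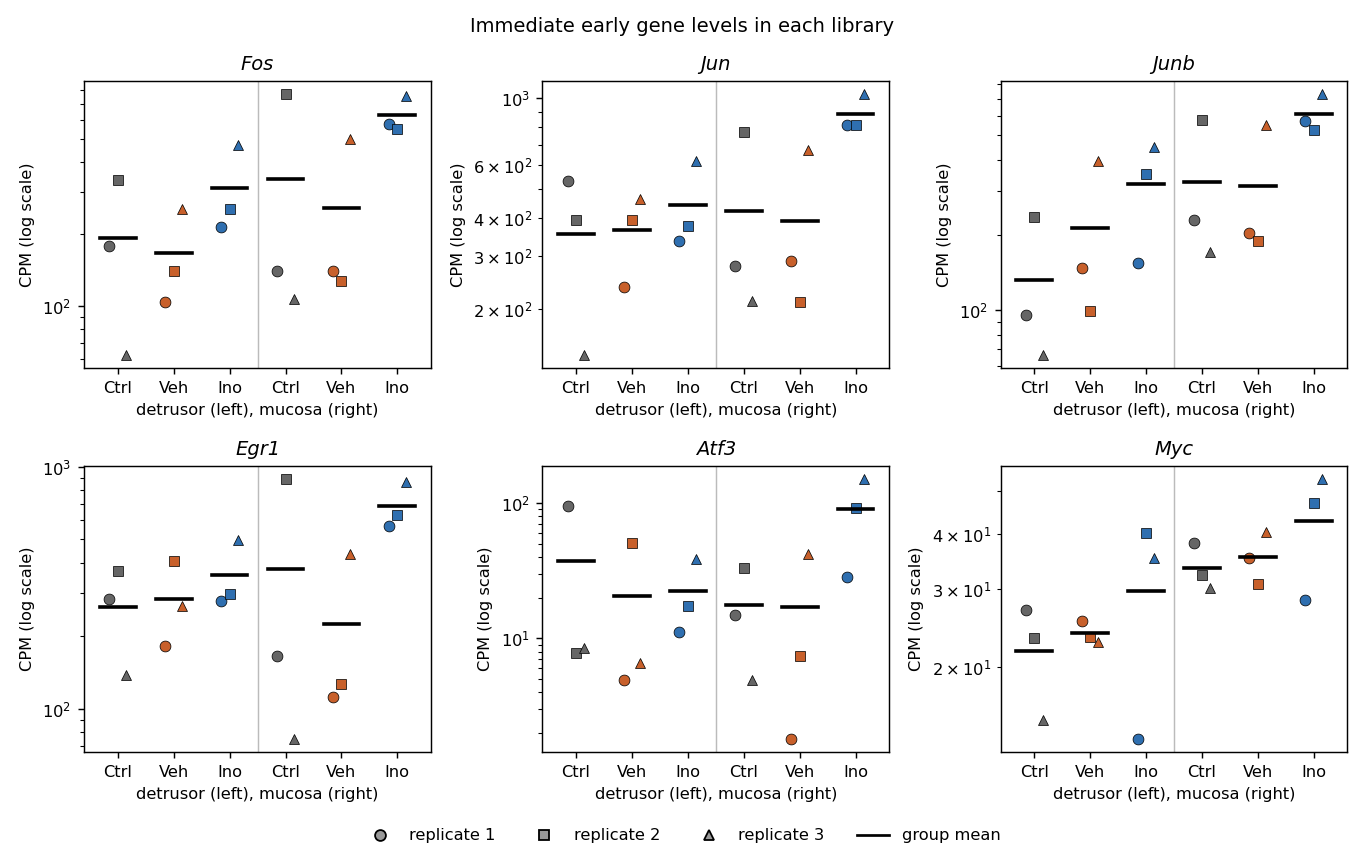
Level of each gene in CPM (log axis) in the 6 groups, detrusor on the left and mucosa on the right of each panel (Ctrl, Control; Veh, SCI-vehicle; Ino, SCI-inosine). Each marker is 1 library, its shape gives the replicate number, and bars are group means; in mucosa Control replicate 2 and SCI-vehicle replicate 3 lie near the SCI-inosine libraries for Fos, Jun, Junb and Egr1.

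The gap between the fourth and the fifth mucosa library was 3.59-fold for Fos, 2.32-fold for Jun, 2.29-fold for Junb, 2.62-fold for Egr1 and 1.90-fold for Atf3. For Myc it was 1.10-fold, and the whole range of Myc in mucosa was 1.88-fold. Because the libraries formed separate sets, no pooled correlation between genes is given for mucosa. The 4 lowest libraries had total counts of 4174263 to 4973121 and lay -3.08% to 8.48% of the way to detrusor. The other 5 had totals of 3255012 to 5632324 and lay -5.28% to 10.8% of the way, so the range of the share of the other tissue overlapped. Of those 5 totals, that of Control replicate 2 was above and the other 4 were below all totals of the lowest 4, so the sets differed in depth. The part of depth in the split was not tested.

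**Figure D2:**
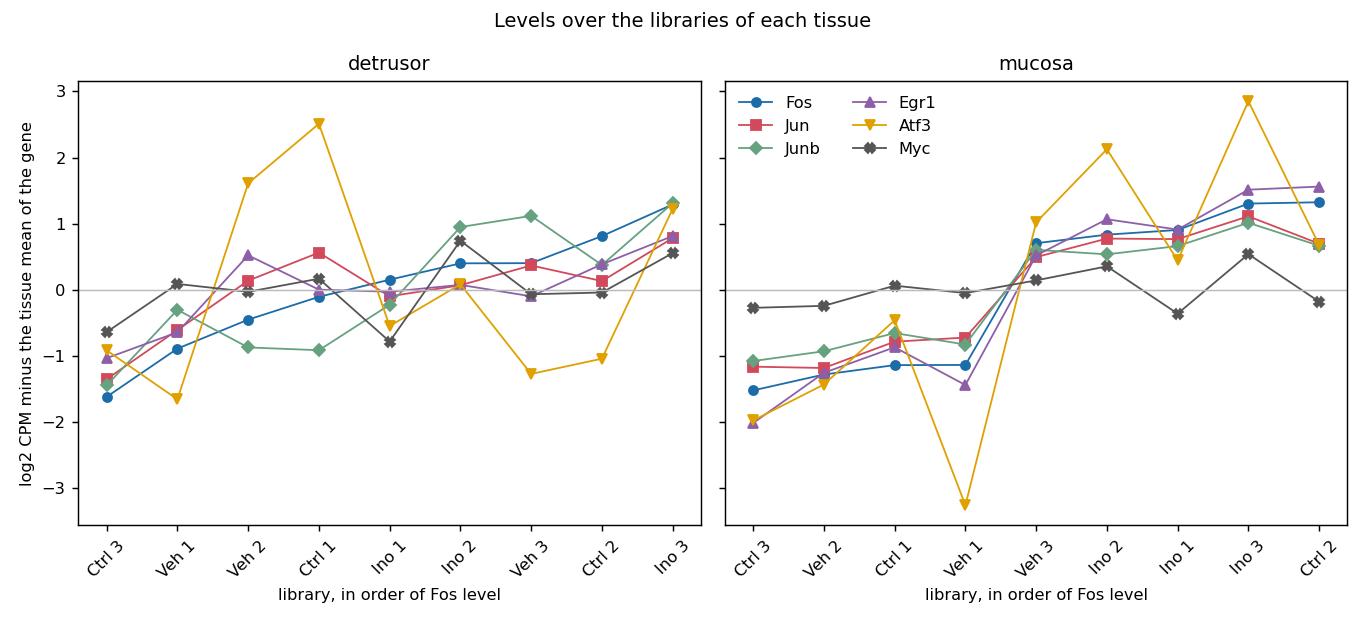
Log2 CPM of each gene minus its mean over the 9 libraries of a tissue (vertical axis), with libraries in order of their Fos level (horizontal axis; Ctrl, Veh and Ino as Control, SCI-vehicle and SCI-inosine with the replicate number). In mucosa all 6 lines rise between the fourth and the fifth library, from SCI-vehicle replicate 1 to SCI-vehicle replicate 3, Myc the least (35.4 to 40.4 CPM).

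The first mucosa question was whether injury with vehicle altered these genes against Control. Values of 5 of the 6 genes were lower and of 1 higher in SCI-vehicle, with a median log2 fold change of -0.13 against 0 over all genes tested. The largest difference was in Egr1, at -0.79 (SE 0.80, 95% interval -2.58 to 0.99). Adjusted p-values of edgeR's quasi-likelihood test ran from 0.764 to 0.979, so 0 of 6 genes passed 0.05. At an unadjusted p under 0.05 the count was 0 of 6 by this test and by edgeR's likelihood ratio test. It was 0 of 5 by DESeq2, which gave no p for Fos in any of the 3 mucosa comparisons. Over all genes, 0% passed the adjusted and 10.2% the unadjusted threshold, and groups did not overlap for 15.9%, against 0 of the 6. Each of the 6 values changed sign with at least 1 library left out. Without Control replicate 2, log2 fold changes were 1.04 for Fos, 0.66 for Jun, 0.64 for Junb, 0.89 for Egr1 and 0.75 for Atf3, none with an adjusted p under 0.05.

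Against the same Control libraries, SCI-inosine mucosa was higher for 6 of 6 genes and for 50.5% of all genes. The median log2 fold change was 0.87 (0 over all genes). Atf3 differed most, at 90.2 ± 61.4 CPM against 17.7 ± 14.3 (SD, n = 3 each), a log2 fold change of 2.32 (SE 0.94, interval 0.24 to 4.40). Its adjusted p in edgeR's quasi-likelihood test was 0.968. Jun stood at 887 ± 126 against 421 ± 307 CPM, a log2 fold change of 1.05 (SE 0.52) with an adjusted p of 0.983 by the same test. Fos, Junb and Egr1 differed by 0.86, 0.88 and 0.84 on the log2 scale and Myc by 0.35. In all, 0 of 6 genes passed the adjusted threshold, as did 0% of all genes. At an unadjusted p under 0.05, 1 gene (Atf3) passed by edgeR's quasi-likelihood test and, of 5 genes, by DESeq2, and 2 by the likelihood ratio test, with no filter or with only these groups fitted. Over all genes, 5% passed by the first. With all 18 libraries in 1 model the count was 0. Groups did not overlap for 1 gene (Jun) and for 9.9% of all genes. Leaving out Control replicate 2 brought the unadjusted count to 5 genes. It came to 0 without replicate 1 or 3 of Control, and likewise without replicate 2 or 3 of SCI-inosine.

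SCI-inosine and SCI-vehicle mucosa were then compared, a contrast that shares its SCI-inosine libraries with the one before. All 6 genes were again higher with inosine, as were 49.8% of all genes. The median log2 fold change was 1.25 (0 over all genes). Atf3 read 90.2 ± 61.4 against 17.1 ± 21.9 CPM (SD, n = 3 each), a log2 fold change of 2.45 (SE 0.95, interval 0.33 to 4.57; adjusted p = 0.881, edgeR). Egr1 read 689 ± 155 against 224 ± 182 CPM, a log2 fold change of 1.63 (SE 0.82; adjusted p = 0.884, edgeR). Fos read 629 ± 115 against 256 ± 213 CPM, a log2 fold change of 1.30 (SE 0.75; adjusted p = 0.889, edgeR). Jun read 887 ± 126 against 390.5 ± 247 CPM, a log2 fold change of 1.19 (SE 0.52; adjusted p = 0.881, edgeR). Junb differed by 0.96 on the log2 scale and Myc by 0.29.

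None of the 6 passed the adjusted threshold in that contrast, and 0.00635% of all genes, a single gene, did. At an unadjusted p under 0.05, 2 of the 6 passed (Jun and Atf3), against 5.53% of all genes. The count was 1 of 5 by DESeq2, 3 by the likelihood ratio test and with all 18 libraries in 1 model, 4 with no filter on low counts and 5 with only these groups fitted. Groups did not overlap for 3 of the 6 (Fos, Jun and Egr1), against 9.16% of all genes. The unadjusted count came to 5 without SCI-vehicle replicate 3 and also without Control replicate 2, which belongs to neither group and enters through the shared fit. Without Control replicate 3 the count was 3. It was 0 without SCI-inosine replicate 2 or 3 and without SCI-vehicle replicate 1 or 2. Adjusted p-values of the 6 genes stayed at 0.302 or above in every one of these fits.

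**Figure D3:**
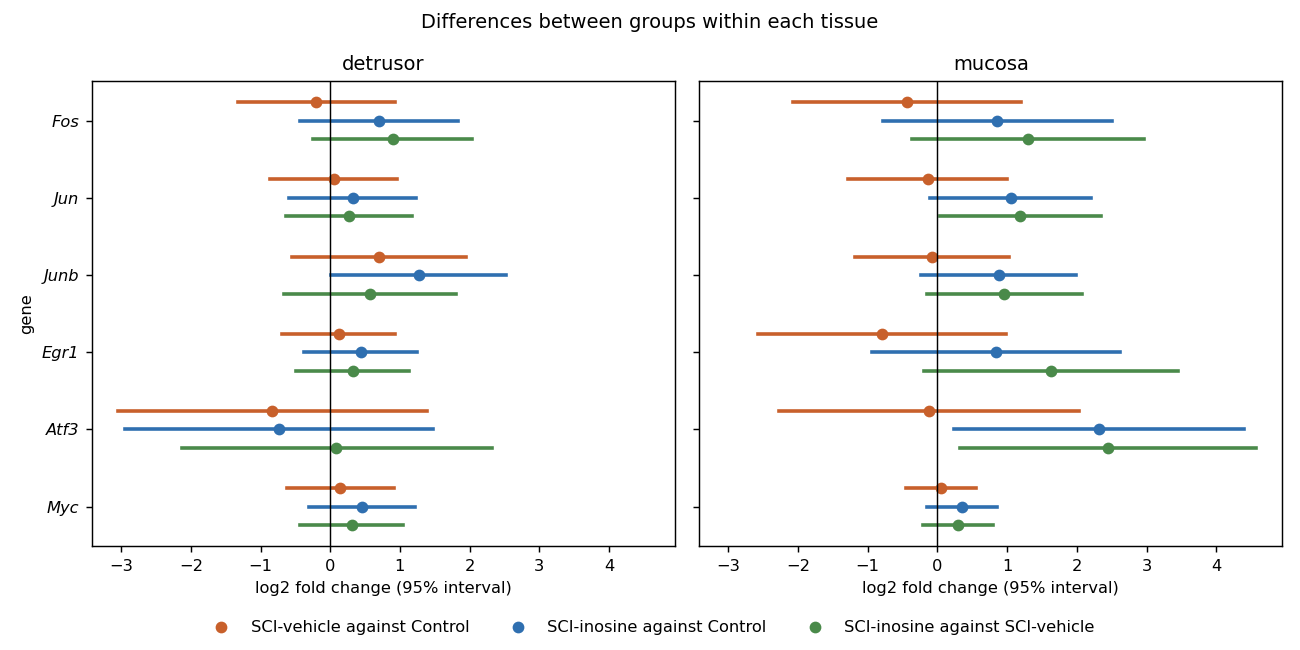
Log2 fold change (points) with its 95% interval (lines) for each gene in the 3 comparisons of each tissue, from edgeR's quasi-likelihood fit. In mucosa the intervals of Atf3 in both SCI-inosine comparisons and of Jun against SCI-vehicle lie above 0, and in detrusor that of Junb in SCI-inosine against Control does; none passed adjustment over all genes.

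In detrusor the 4 lowest libraries for Fos and for Junb were Control replicates 1 and 3 and SCI-vehicle replicates 1 and 2, the same treatments and numbers as in mucosa, but for Jun, Egr1, Atf3 and Myc they were others. Control replicate 3 was the lowest library for Fos, Jun, Junb and Egr1, and SCI-inosine replicate 3 the highest for the same 4 genes. The widest step between neighbouring libraries was 1.66-fold for Fos, 1.68-fold for Jun, 1.52-fold for Junb, 1.46-fold for Egr1, 2.23-fold for Atf3 and 1.5-fold for Myc. From the fourth to the fifth library it was 1.20-fold for Fos and 1.05-fold for Junb.

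Fos in detrusor read 178, 337 and 62.3 CPM in Control, 103.5, 140.4 and 254 in SCI-vehicle, and 214, 253.5 and 470.2 in SCI-inosine. Jun read 531, 394 and 141 CPM in Control, 236, 396 and 464 in SCI-vehicle, and 336, 377 and 618 in SCI-inosine. For both genes Control replicate 3 was far below the other 2 Control libraries, and all 3 groups overlapped. Junb read 96.2, 235.5 and 66.4 CPM in Control, 147, 99.0 and 394 in SCI-vehicle, and 155, 351 and 450.2 in SCI-inosine. Its group means followed the order Control, SCI-vehicle, SCI-inosine, and neighbouring groups overlapped.

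Egr1 in detrusor read 283, 369.9 and 138 CPM in Control, 181, 406 and 264 in SCI-vehicle, and 277, 298 and 497 in SCI-inosine. Atf3 read 95.02, 7.74 and 8.48 CPM in Control, 4.92, 50.7 and 6.54 in SCI-vehicle, and 11.1, 17.3 and 38.7 in SCI-inosine. A single library, Control replicate 1 or SCI-vehicle replicate 2, carried most of the Atf3 signal of each of those groups. Myc read 26.9, 23.2 and 15.2 CPM in Control, 25.4, 23.4 and 22.8 in SCI-vehicle, and 13.7, 40.2 and 35.3 in SCI-inosine. The SCI-vehicle values of Myc were the closest of any group, with an SD of 1.38 CPM around 23.9.

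For SCI-vehicle against Control in detrusor, 4 genes were higher and 2 lower, and the median log2 fold change was 0.09 against 0.01 over all genes. The values ran from -0.83 for Atf3 (SE 1.01) to 0.70 for Junb (SE 0.57), with Fos at -0.20, Jun at 0.05, Egr1 at 0.12 and Myc at 0.14. Adjusted p-values in edgeR's quasi-likelihood test ran from 0.642 to 0.975. So 0 of 6 passed, against 0.0762% of all genes, and at an unadjusted p under 0.05 it was 0 of 6 against 13%, with 0 by DESeq2 and by the likelihood ratio test. That count was 1 without Control replicate 2 or SCI-vehicle replicate 2. Groups did not overlap for 0 of 6 and for 20.5% of all genes. Each of the 6 values changed sign with at least 1 library left out. Without Control replicate 1 the Atf3 value turned to 1.37, and without SCI-vehicle replicate 1, the library nearest to mucosa, the Fos value turned to 0.04. Without SCI-vehicle replicate 3 the Junb value was -0.09.

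In SCI-inosine against Control the detrusor values were higher for 5 genes and lower for Atf3, with a median log2 fold change of 0.45 against -0.01 over all genes. Junb read 319 ± 150.0 against 133 ± 90.2 CPM (SD, n = 3 each), a log2 fold change of 1.27 (SE 0.57, interval 0.01 to 2.52). Its unadjusted p of 0.0489 in edgeR's quasi-likelihood test gave an adjusted p of 0.365. Fos differed by 0.70 on the log2 scale, Myc by 0.45, Egr1 by 0.44, Jun by 0.32 and Atf3 by -0.73. Thus 0 of 6 passed the adjusted threshold, against 0.292% of all genes. At the unadjusted one it was 1 of 6 against 13.6%, with 1 by the likelihood ratio test, with no filter and with only these groups fitted. It was 0 by DESeq2, with its size factors, with filterByExpr, with all 18 libraries in 1 model and without replicate 1 or 3 of Control or replicate 2 or 3 of SCI-inosine. It was 2 without Control replicate 2 or without SCI-inosine replicate 1. Groups did not overlap for 0 of 6, against 18.6%. Without Control replicate 1 the Atf3 value was 1.46, and without SCI-inosine replicate 2, the library with the fewest genes counted, the Myc value was 0.16.

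Between SCI-inosine and SCI-vehicle in detrusor, 6 of 6 values were above 0, as were 45.8% over all genes. The median of the 6 log2 fold changes was 0.31, against -0.03 over all genes. They were 0.90 for Fos (SE 0.52, interval -0.24 to 2.04), 0.57 for Junb, 0.32 for Egr1, 0.31 for Myc, 0.27 for Jun and 0.09 for Atf3 (SE 1.01). Adjusted p-values by edgeR ran from 0.952 to 0.997. The counts were 0 of 6 at the adjusted threshold (0% of all genes), 0 of 6 at the unadjusted (4.38% of all genes; 0 by DESeq2 and by the likelihood ratio test) and 0 of 6 without overlap (9.29%). The unadjusted count was 1 with no filter and with only these groups fitted. It came to 2 without SCI-vehicle replicate 3, which left Fos at 1.34, and to 1 when replicate 3 of Control or replicate 1 of SCI-inosine was left out. With SCI-vehicle replicate 1 left out the Jun value was 0.04, the Egr1 value 0.09 and the Atf3 value -0.36.

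The spread of the genes between replicate libraries lay above the median of all genes tested, by the least for Myc in mucosa. The within-group SD of log2 CPM in mucosa was 1.11 for Fos, 0.76 for Jun, 0.74 for Junb, 1.24 for Egr1 and 1.62 for Atf3, against a median of 0.28 over all genes tested. These placed Fos at the percentile 98.9 of all genes, Jun at 94.7, Junb at 93.9, Egr1 at 99.3 and Atf3 at 99.8. Myc, with an SD of 0.31, was at 56.2. Among genes within 0.5 log2 units of their mean level the percentiles were 99.0, 96.9, 95.1, 99.5 and 99.9, and for Myc 81.2. In detrusor the SDs were 0.87 for Fos, 0.70 for Jun, 0.93 for Junb, 0.60 for Egr1, 1.64 for Atf3 and 0.54 for Myc, against a median of 0.34. Over all genes this placed Fos at the percentile 89.6, Jun at 81.4, Junb at 91.4, Egr1 at 75.4, Atf3 at 99.7 and Myc at 71. Among detrusor genes of like level they lay at percentiles 99.1, 99.2, 99.7, 98.3, 99.7 and 93.1.

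The spread was not even over the groups. In SCI-inosine mucosa the highest library stood 1.39-fold above the lowest for Fos, 1.27-fold for Jun, 1.39-fold for Junb and 1.52-fold for Egr1. In Control mucosa those ranges were 7.21-fold, 3.63-fold, 3.35-fold and 12.0-fold, and in SCI-vehicle mucosa 3.97-fold, 3.20-fold, 2.90-fold and 3.90-fold. Atf3 spanned 5.36-fold in SCI-inosine mucosa, 6.71-fold in Control mucosa and 23.5-fold in SCI-vehicle mucosa. Myc went the other way, at 1.88-fold in SCI-inosine mucosa against 1.265-fold in Control and 1.31-fold in SCI-vehicle mucosa. With 3 libraries in each group the difference in spread was not tested.

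**Figure D4:**
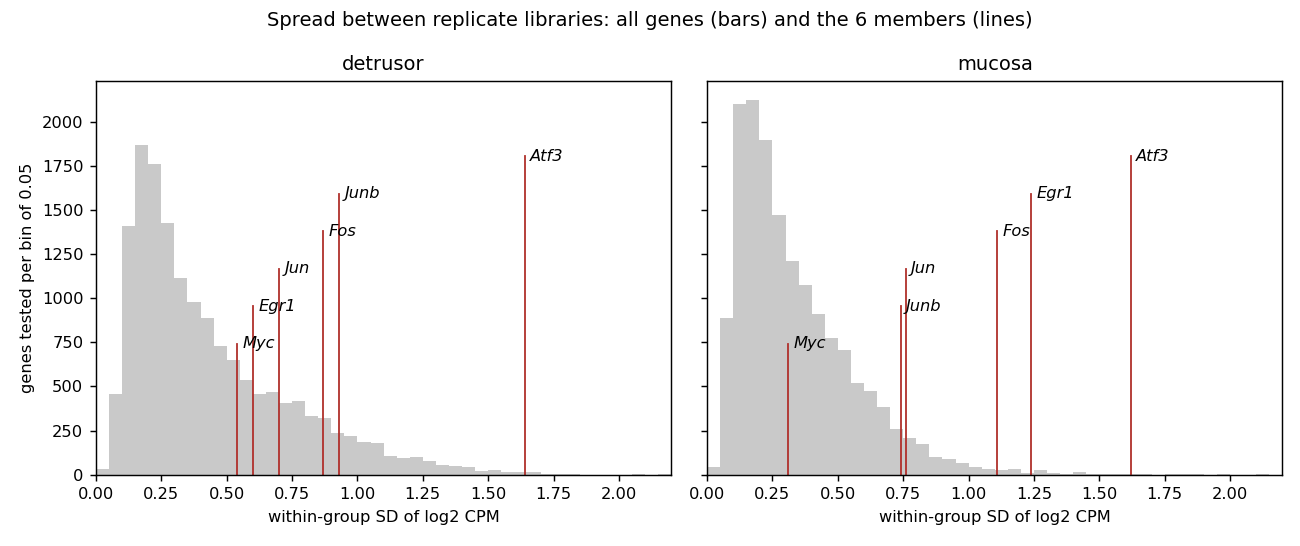
Within-group SD of log2 CPM (horizontal axis) for all 15740 genes tested (grey bars, number of genes per bin on the vertical axis) and for the 6 genes (red lines, whose heights carry no value), in each tissue. Every line lies to the right of the median, which is 0.34 in detrusor and 0.28 in mucosa, and Myc in mucosa (0.31) lies nearest to it.

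Mucosa and detrusor were set against each other within each treatment, in 1 model of all 18 libraries. In Control, 5 genes were higher in mucosa and Atf3 lower, with a median log2 difference of 0.57 (0.07 over all genes). Junb read 325 ± 218 CPM in mucosa and 133 ± 90.2 in detrusor (SD, n = 3 each), a log2 difference of 1.29 (SE 0.61; adjusted p = 0.0961, edgeR). Myc read 33.6 ± 4.16 against 21.8 ± 5.98 CPM, a log2 difference of 0.62 (SE 0.31; adjusted p = 0.123, edgeR). No gene of the 6 passed, while 44.5% of all genes did. At an unadjusted p under 0.05 it was 1 of 6 (Junb), with 0 by DESeq2, against 51%, and groups did not overlap for 1 of 6 (Myc), against 56.8%. Without detrusor Control replicate 2 Junb passed (log2 difference 2.00, adjusted p = 0.0286, edgeR). Its difference fell to 0.59 without mucosa Control replicate 2 (adjusted p = 0.482, edgeR) and to 0.97 without detrusor Control replicate 3 (adjusted p = 0.271, edgeR). Myc passed without detrusor SCI-inosine replicate 1 (0.62, adjusted p = 0.035, edgeR), which belongs to neither group and enters through the shared fit. Without detrusor Control replicate 3 the Myc difference was 0.42 (adjusted p = 0.348, edgeR).

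In SCI-vehicle, 4 genes were higher in mucosa and 2 lower, with a median log2 difference of 0.33 (0.16 over all genes). Myc again did not overlap between tissues, at 35.6 ± 4.79 against 23.9 ± 1.38 CPM, a log2 difference of 0.57 (SE 0.31; adjusted p = 0.138, edgeR). Junb differed by 0.56 (SE 0.60). Detrusor SCI-vehicle replicate 1 lay 25.8% of the way to mucosa, and without it Junb differed by 0.35 and Myc by 0.62. With all libraries kept, 0 of 6 genes passed the adjusted threshold, against 47.1% of all genes. At the unadjusted one it was 0 of 6 against 53.9%, with 0 by DESeq2 and by the likelihood ratio test. Groups did not overlap for 1 of 6, against 60.7%. Myc passed without detrusor SCI-inosine replicate 1, with an adjusted p of 0.0434 in edgeR's quasi-likelihood test. That library belongs to neither group and enters through the shared fit, and the Myc difference stayed at 0.57.

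In SCI-inosine, all 6 genes were higher in mucosa, as were 54.7% of all genes. The median log2 difference was 0.97 (0.11 over all genes). The log2 differences were 2.02 for Atf3 (SE 1.10), 1.01 for Fos (SE 0.71), 1.00 for Jun (SE 0.52), 0.95 for Egr1 (SE 0.69), 0.94 for Junb (SE 0.60) and 0.53 for Myc (SE 0.31). Mucosa and detrusor did not overlap for Fos, Jun, Junb and Egr1, 4 of 6 genes against 50.3% of all. Adjusted p-values by edgeR ran from 0.132 to 0.280, so 0 of 6 passed, against 42.7% of all genes. At the unadjusted threshold it was 0 of 6 against 50.5%, with 1 by DESeq2.

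Whether a treatment difference itself varied between mucosa and detrusor was tested as an interaction. For SCI-vehicle against Control, 0 of 6 genes passed the adjusted threshold (0.121% of all genes) and 0 the unadjusted (11%). For SCI-inosine against Control it was 0 of 6 (0%) and 0 of 6 (10.4%), and for SCI-inosine against SCI-vehicle 0 of 6 (0%) and 0 of 6 (3.87%). DESeq2 gave 0 at both thresholds in all 3, and the likelihood ratio test gave 1 gene, unadjusted, in SCI-inosine against Control. Atf3 had the smallest p in that interaction, where its difference in mucosa exceeded that in detrusor by 3.08 on the log2 scale (SE 1.55, interval -0.20 to 6.36; adjusted p = 0.502, edgeR). Without detrusor Control replicate 1, the library with 95.02 CPM of Atf3, that value was 0.88. In SCI-inosine against SCI-vehicle the Atf3 value was 2.33 (SE 1.57; adjusted p = 1.00, edgeR).

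Set over the 6 groups, mean levels were highest in SCI-inosine mucosa for each of the 6 genes. For Fos the order downward from its 629 CPM was Control mucosa (340 ± 375), SCI-inosine detrusor (312 ± 138), SCI-vehicle mucosa (256 ± 213), Control detrusor (193 ± 138) and SCI-vehicle detrusor (166 ± 78.5). For Jun it was SCI-inosine detrusor (443 ± 152), Control mucosa (421 ± 307), SCI-vehicle mucosa (390.5 ± 247), SCI-vehicle detrusor (365 ± 117) and Control detrusor (355 ± 198), a span within 1 SD of each. Junb followed the order Control mucosa (325 ± 218), SCI-inosine detrusor (319 ± 150.0), SCI-vehicle mucosa (315 ± 204), SCI-vehicle detrusor (213.5 ± 158) and Control detrusor (133 ± 90.2). Below the top group, neighbours in these 3 orders overlapped and differed by less than their SD. The top group, SCI-inosine mucosa, also overlapped Control mucosa for Fos and Junb, through Control replicate 2.

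For Egr1 the order was Control mucosa (377 ± 448), SCI-inosine detrusor (357.5 ± 121.5), SCI-vehicle detrusor (284 ± 114), Control detrusor (264 ± 117) and SCI-vehicle mucosa (224 ± 182). Atf3 followed with Control detrusor (37.1 ± 50.2), SCI-inosine detrusor (22.4 ± 14.5), SCI-vehicle detrusor (20.7 ± 26.0), Control mucosa (17.7 ± 14.3) and SCI-vehicle mucosa (17.1 ± 21.9). Only Myc kept the tissues apart in its means, with SCI-inosine mucosa (42.9 ± 12.9), SCI-vehicle mucosa (35.6 ± 4.79) and Control mucosa (33.6 ± 4.16) above SCI-inosine detrusor (29.8 ± 14.1), SCI-vehicle detrusor (23.9 ± 1.38) and Control detrusor (21.8 ± 5.98). Of the 9 pairs of groups tested (6 within a tissue and 3 between tissues), none passed an adjusted p of 0.05 in edgeR's quasi-likelihood test for any of the 6 genes.

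Members were next set against each other over the 9 detrusor libraries. Pearson's r of log2 CPM was positive for 14 of the 15 pairs, and Junb with Atf3 was the exception, at -0.16. For Fos and Jun r was 0.85 (exact permutation, two-sided p = 0.00359, adjusted over 30 pairs 0.00897) and Spearman's rho was 0.65 (exact permutation p = 0.0666). For Fos and Junb r was 0.84 (exact permutation p = 0.00419, adjusted 0.00968) and rho 0.88 (exact permutation p = 0.00308). For Fos and Egr1 r was 0.83 (exact permutation p = 0.00594, adjusted 0.0127) and rho 0.63 (exact permutation p = 0.076). For Jun and Egr1 r was 0.86 (exact permutation p = 0.00293, adjusted 0.00878) and rho 0.68 (exact permutation p = 0.0503). These were the 4 pairs with an adjusted p under 0.05, and by rho Fos with Junb was the only one.

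The 4 correlations leaned on 2 libraries far from the median of the first gene. For Fos these were Control replicate 3 and SCI-inosine replicate 3, the lowest and the highest. For Jun they were Control replicate 3 and SCI-vehicle replicate 1, both at the low end. Without the 2 farthest from the median of the first gene, r was 0.51 for Fos and Jun, 0.65 for Fos and Junb, 0.48 for Fos and Egr1 and 0.42 for Jun and Egr1. No pair passed when Control replicate 3 was left out, and 2 did without SCI-inosine replicate 3. Within groups, as deviations from the group means, r for the 4 pairs was 0.86, 0.83, 0.81 and 0.85.

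Over all 18 libraries, with the mean of each tissue subtracted, likeness of pattern was ranked among the 15739 other genes tested, as a description. For Fos, Jun ranked at place 2 (r = 0.94), Egr1 at 4 (0.924) and Junb at 9 (0.895). Seen from Jun, Fos was at place 3 and Egr1 at 4. For Egr1 the nearest members were Jun at place 2 and Fos at 3, both with r = 0.924. Junb had Fos at place 4 (r = 0.895), with Jun at 31 and Egr1 at 60. Atf3 was less close to the AP-1 subunits, its nearest members being Egr1 at place 14 (r = 0.783) and Jun at 18 (0.767). For Myc the nearest was Junb at place 304 (r = 0.545), and the others ranked between 536 and 1308. The median r over all genes lay between -0.052 and -0.026 for the 6. Genes in the places between were not named, since their identifiers could not be paired with symbols. Only the tissue mean was subtracted, so the mucosa sets described above and the treatment differences enter these r values and ranks. Their part in the ranks was not tested.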

How the data were processed

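Per the labels, ribosomal RNA was depleted and libraries were stranded. Per the study's methods, they were sequenced on 2 flow cells and the counts of both were added. The submitters' processing notes name Trim Galore 0.6.10, STAR 2.7.10a, SAMtools 1.17, featureCounts 2.0.3, FastQC 0.11.9, MultiQC 1.13 and the rat build Rnor_6.0. The deposited values are whole-number counts per gene without normalization. There were 0 unused columns and 0 entries without a gene, and labels give all libraries the same batch.

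Counts were scaled by TMM and tested with the quasi-likelihood F test of edgeR 4.0.16 in R 4.3.3 (two-sided, Benjamini-Hochberg over 15740 genes, threshold 0.05). Each fit within a tissue used its 9 libraries in 3 groups, and comparisons between tissues used all 18. The biological coefficient of variation was 26.5% in detrusor, 20.0% in mucosa and 23.1% in both. Log2 CPM used a prior count of 2. Steps were tested on simulated data. The same-numbered libraries were not treated as pairs. The share of the way to the other tissue is a median position over genes. These genes were over 4-fold higher in the other control tissue than in the library's own, and above 50 CPM in the other. Each control library was set against the remaining control libraries of its tissue.

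The members, lists and tests were chosen with earlier results of these data known. All 6 members are named by rule. Lists of related genes and cell type markers fixed beforehand were not analysed here, because the identifiers were paired with symbols for the 6 members alone. Correlation of members in mucosa, also planned, is not given because the libraries formed separate sets. Alternatives were DESeq2 1.42.0, its size factors, the likelihood ratio test, filterByExpr, no filter, unadjusted p, a replicate block, fewer or more groups in the fit and leaving out each library.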

Additional observations from a re-analysis of the deposited data

How the results depend on the processing

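Precision was set by 3 libraries in each group; Atf3 rested on as few as 9 reads and Myc on as few as 52. The count of genes passing the adjusted threshold was 0 in each of the 12 comparisons under DESeq2, its size factors, the likelihood ratio test, filterByExpr and no filter, and in the 6 within tissues also with only the groups compared and with all 18 libraries in 1 model. DESeq2 covered 5 genes in mucosa, without Fos. At unadjusted p it was 1 in detrusor SCI-inosine against Control, 1 in mucosa SCI-inosine against Control, 2 in mucosa SCI-inosine against SCI-vehicle, 1 between tissues in Control and 0 in the others. Leaving out each library gave 0 to 1 between tissues in Control and in SCI-vehicle and 0 elsewhere. Correlated pairs in detrusor came to 1 by Spearman's rho and 0 to 5 with a library left out. The cause of these changes was not tested.

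Same-numbered libraries of a tissue had correlated deviations over 0.1 in 7 of 18 pairs (-0.257 to 0.464). The own number was the best match in 7 of those 18. Between tissues 5 of 9 pairs were over 0.1 (0.006 to 0.233), and the own number was the best match in 7 of those 9. Not every pair was over 0.1 and the labels give no shared rat, so the numbers were not taken to pair the samples, although all 9 correlations between tissues were above 0. With the replicate number as a block 0 of 6 genes passed in each comparison, and a rat shared between tissues was not modelled.

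Leaving out a library was followed for the 6 genes within tissues and in SCI-inosine between tissues, for Junb and Myc between tissues in the other treatments, and for Atf3 in both SCI-inosine interactions. Of these, the following log2 fold changes turned sign. In detrusor SCI-vehicle against Control they ran from -0.65 to 0.47 for Fos, -0.30 to 0.46 for Jun, -0.09 to 1.40 for Junb, -0.22 to 0.44 for Egr1, -2.66 to 1.37 for Atf3 and -0.03 to 0.32 for Myc. In detrusor SCI-inosine against Control they ran from -0.04 to 0.73 for Jun and -1.38 to 1.46 for Atf3, and against SCI-vehicle from -0.05 to 0.48 for Jun and -0.56 to 1.93 for Atf3. In mucosa SCI-vehicle against Control they ran from -1.40 to 1.04 for Fos, -0.80 to 0.66 for Jun, -0.77 to 0.64 for Junb, -1.72 to 0.89 for Egr1, -1.96 to 0.75 for Atf3 and -0.06 to 0.17 for Myc. Between tissues in SCI-vehicle, Junb ran from -0.12 to 1.35. Both SCI-inosine comparisons in mucosa kept values above 0 for 6 of 6 genes in every fit. The comparisons share their SCI-inosine libraries and 5 of the genes split the mucosa libraries the same way, so these counts are not independent.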

Other observations

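The same number marks 1 detrusor and 1 mucosa library of each treatment, and the labels do not say whether they share a rat. The replicate number with the highest level was the same in both tissues for 4 of 6 genes among Control libraries (35.4% of all genes tested), for 3 with vehicle (34.1%) and for 5 with inosine (35.4%). It was the same in all 3 treatments for 2 of 6 genes, against 4.77% of all genes. Deviations from the group mean had the same sign in both tissues for 8 of the 9 numbered pairs for Fos and for Junb, 7 for Jun and for Myc, 6 for Egr1 and 5 for Atf3, against a median of 5 over all genes. Of all genes, 4.21% reached 8 or more such pairs, 13.9% reached 7, 31.4% reached 6 and 52.8% reached 5 or more. These values were looked at after the levels had been seen, and no test was made of them.

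Summed over the 6 genes, Control mucosa replicate 2 held 3079 CPM and SCI-vehicle mucosa replicate 3 held 2241, against 601 to 865 CPM in the other Control and SCI-vehicle mucosa libraries and 2588 to 3592 in SCI-inosine mucosa. In detrusor the sum ran from 431 CPM in Control replicate 3 to 2109 in SCI-inosine replicate 3.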
